A study of Sus scrofa with 8 samples.

Results

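The 7 genes described here belong to the cholesterol synthesis pathway of the olfactory epithelium in newborn pigs with and without CFTR. They were taken by symbol, with earlier results of these data known. HMGCS1, IDI1, FDFT1, SQLE, LSS and DHCR7 encode enzymes of the pathway, and INSIG1 encodes a sterol sensor that holds the pathway in check. Although the group was named for synthesis and uptake, no member encodes an uptake protein, so genes of uptake are given beside it. All 7 matched an Ensembl pig identifier in the count table, 7 of 25880 pig genes, and all 7 passed the filter on low counts that kept 17175 genes. The study compared wild-type piglets (4, numbered 5, 9, 12 and 23) with CFTR knock-out piglets (4, numbered 6, 18, 20 and 21), all newborn and with no treatment named. The series concerns smell loss in cystic fibrosis, the disease that follows from loss of CFTR, an epithelial anion channel. The olfactory neuroepithelium was dissected, so each library can mix neurons, supporting cells, glands, glia and stroma, and fewer cells of a type and less RNA per cell cannot be told apart. The labels give no strain, litter, sex or allele.

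Cholesterol is built from acetyl-CoA through mevalonate, isoprenoid units, squalene and lanosterol. When sterols are scarce in the endoplasmic reticulum, the escort protein SCAP carries SREBP transcription factors to the Golgi for cleavage, and the cleaved factor switches on the genes of the pathway together with genes of lipoprotein uptake and INSIG1. When sterols are plentiful, INSIG proteins retain SCAP in the endoplasmic reticulum, and oxysterols activate liver X receptors, which drive the efflux transporters ABCA1 and ABCG1 and MYLIP, a ligase that marks lipoprotein receptors for degradation. Membrane-rich cells such as neurons, whose sensory cilia and axons are mostly membrane, and myelinating glia have a high demand for sterols.

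Libraries held 30836904 to 43253395 counts assigned to pig genes. CFTR was 34.0 to 56.6 CPM (counts per 1e6 assigned counts, scaled by TMM) in the wild-type libraries and 5.24 to 8.37 CPM in the knock-out libraries, 16.9% of the wild-type mean, so the genotype labels held in every library. CFTR was also the 1 gene of 17175 (0.00582%) that passed an edgeR adjusted p of 0.05, at -2.56 ± 0.21 in log2 (SE, adjusted p = 0.0115). The olfactory channel CNGA2 was 231 to 512 CPM across the 8 libraries, so the sensory neurons of the labelled tissue were present in each. Knock-out piglet 18 stood apart in bone and connective tissue genes (10 genes summing to 42742 CPM, against 1309 to 5368 CPM in the other 7 libraries). Wild-type piglets 9 and 12 were the 2 libraries with Y-linked reads. No knock-out library had them, so the sex that these reads point to was not balanced between the genotypes.

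Among the members, 6 of 7 had a lower mean in the knock-out, and the median log2 fold change was -0.44, against 0.01 over all genes tested. IDI1 was the 1 member whose 4 knock-out values all lay below the 4 wild-type values, a pattern seen on that side in 3.36% of all genes tested. No member passed the edgeR adjusted p of 0.05, where the smallest value was 0.327. At an unadjusted edgeR p under 0.05, 5 of 7 members were lower (HMGCS1, IDI1, LSS, DHCR7 and INSIG1) and none was higher, against 5.84% of all genes on the lower side. Because the members were chosen with earlier results of these data known, this count is a description and not a test of the group. DESeq2 called 1 member lower, IDI1, against 0.786% of all genes, and limma with sample quality weights called none of the 7, against 0.064% of all genes in either direction. The count of 5 became 3 without wild-type piglet 5 or 23 or knock-out piglet 6, 18, 20 or 21, each left out alone, and it was 2 without piglets 5 and 18 together.

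**Figure D1:**
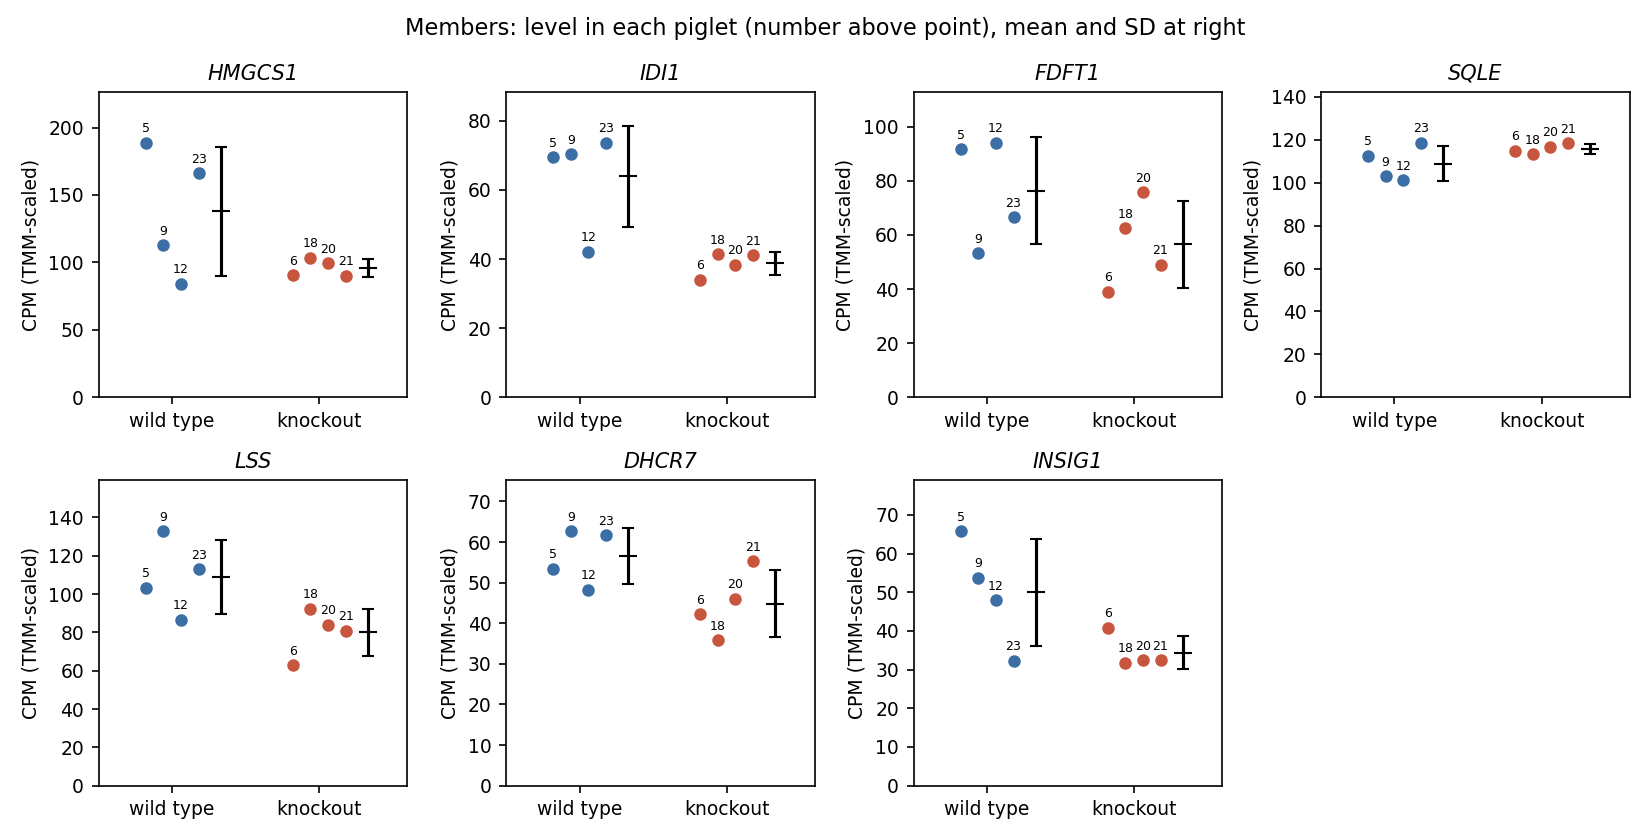
Expression of the 7 members in TMM-scaled CPM (vertical axis, from 0) for wild-type (blue) and CFTR knock-out (red) piglets, each point 1 library with its piglet number, and at the right of each group the mean with SD (n = 4). The knock-out values of IDI1 sit at 34.1 to 41.4 CPM below all wild-type values, whereas the groups overlap in the other 6 genes and the mean of SQLE is higher in the knock-out.

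The early steps are represented by HMGCS1 and IDI1. HMGCS1 is the cytosolic synthase that joins acetoacetyl-CoA and acetyl-CoA into the precursor of mevalonate (ENSSSCG00000016872, chromosome 16, 27936229 to 27957227, minus strand, build not stated). It was 189, 113, 84.0 and 166 CPM in wild-type piglets 5, 9, 12 and 23, and 90.4, 103, 99.6 and 90.0 CPM in knock-out piglets 6, 18, 20 and 21. Wild-type piglets 5 and 23 were far above every knock-out piglet, piglet 9 was slightly above them, and piglet 12 was the lowest of all 8. The wild-type mean was 138 ± 48.0 CPM and the knock-out mean 95.9 ± 6.73 CPM (SD, n = 4 each), so the spread between animals was 34.8% of the mean in the wild type and 7.02% in the knock-out. The log2 fold change was -0.52 ± 0.22 (SE, edgeR adjusted p = 0.432), which was -0.35 without wild-type piglet 5, -0.71 when piglet 12 was left out and -0.89 with Y-linked reads as a covariate.

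IDI1 isomerises isopentenyl diphosphate, which makes the pair of isoprenoid units that later enzymes condense (ENSSSCG00000029066, chromosome 10, 68534517 to 68539280, plus strand, build not stated). It was 69.5, 70.4, 42.2 and 73.6 CPM in wild-type piglets 5, 9, 12 and 23, and 34.1, 41.4, 38.4 and 41.2 CPM in knock-out piglets 6, 18, 20 and 21. The groups did not overlap, but wild-type piglet 12 lay within 1 CPM of knock-out piglets 18 and 21, well below the other 3 wild-type piglets. The means were 63.9 ± 14.6 and 38.8 ± 3.41 CPM (SD, n = 4 each), 1.65-fold lower in the knock-out. Its log2 fold change of -0.72 ± 0.17 (SE) was the most negative of the members and of all 21 sterol pathway genes tested, with an edgeR unadjusted p of 0.00191 and an adjusted p of 0.327. The DESeq2 adjusted p was 0.0140, and edgeR without wild-type piglet 12 gave an adjusted p of 0.0399. The adjusted p ranged from 0.0140 to 0.763 over 15 alternative settings, in all of which the unadjusted p was under 0.05. Exons of IDI1 shared 55 bases, 2.8% of its exon length, with WDR37 on the opposite strand, and the labels do not say whether counting used strand.

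The squalene steps are represented by FDFT1, SQLE and LSS, and they differed among themselves. FDFT1 is squalene synthase, which commits farnesyl units to sterols (ENSSSCG00000026044, chromosome 14, 14967273 to 15104179, plus strand, build not stated). It was 91.7, 53.2, 94.0 and 66.6 CPM in wild-type piglets 5, 9, 12 and 23, and 39.0, 62.5, 75.8 and 48.9 CPM in knock-out piglets 6, 18, 20 and 21. The animals were spread widely and the groups overlapped, with wild-type piglet 12 the highest of all 8 here, unlike its low place in HMGCS1. The log2 fold change was -0.43 ± 0.24 (SE, edgeR adjusted p = 0.495). FDFT1 shared 509 exon bases, 7.8% of its length, with CTSB on the opposite strand, a lysosomal protease gene, so reads of the shared stretch are uncertain.

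SQLE, squalene epoxidase, is an oxygen-dependent and rate-limiting enzyme that adds the oxygen needed for ring closure (ENSSSCG00000005970, chromosome 4, 14667848 to 14700221, minus strand, build not stated). It was 113, 103, 101 and 119 CPM in wild-type piglets 5, 9, 12 and 23, and 115, 113, 117 and 118 CPM in knock-out piglets 6, 18, 20 and 21. The knock-out values lay inside the wild-type range and varied by 1.93% of their mean, the smallest spread of any member. SQLE was the 1 member with a positive log2 fold change, 0.09 ± 0.07 (SE, edgeR adjusted p = 0.609), and it had an unadjusted p under 0.05 in none of the 15 alternatives.

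LSS is lanosterol synthase, which folds squalene epoxide into the sterol ring system (ENSSSCG00000021418, on an unplaced scaffold, 519536 to 554726, plus strand, build not stated). It was 103, 133, 86.5 and 113 CPM in wild-type piglets 5, 9, 12 and 23, and 62.8, 92.2, 84.0 and 80.9 CPM in knock-out piglets 6, 18, 20 and 21. Knock-out piglet 18 was above wild-type piglet 12, and otherwise the knock-out values were below the wild-type values. The means were 109 ± 19.3 and 80.0 ± 12.4 CPM (SD, n = 4 each), a log2 difference of -0.44 ± 0.15 (SE, edgeR unadjusted p = 0.0161, adjusted p = 0.402). Its unadjusted p was under 0.05 in 14 of 15 alternatives, and the adjusted p of these alternatives ranged from 0.103 to 0.763.

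DHCR7 reduces dehydrocholesterol to cholesterol in the last step of the Kandutsch-Russell branch (ENSSSCG00000021181, chromosome 2, 2357714 to 2394851, plus strand, build not stated). It was 53.5, 62.6, 48.2 and 61.7 CPM in wild-type piglets 5, 9, 12 and 23, and 42.2, 35.9, 46.0 and 55.3 CPM in knock-out piglets 6, 18, 20 and 21. Knock-out piglet 21 reached the wild-type values while the other 3 knock-out piglets were below all of them. The log2 fold change was -0.33 ± 0.14 (SE, edgeR unadjusted p = 0.0423, adjusted p = 0.431), and the unadjusted p was under 0.05 in 8 of 15 alternatives.

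INSIG1 encodes the sensor that retains SCAP, and it is itself an SREBP target (ENSSSCG00000016420, chromosome 18, 2885494 to 2898914, minus strand, build not stated). It lies on the chromosome of CFTR (28627719 to 28819815). INSIG1 was 65.7, 53.8, 48.0 and 32.3 CPM in wild-type piglets 5, 9, 12 and 23, and 40.8, 31.7, 32.5 and 32.4 CPM in knock-out piglets 6, 18, 20 and 21. Wild-type piglet 23, which was among the highest in HMGCS1, IDI1 and CYP51A1, had the level of the knock-out piglets here. The log2 fold change was -0.54 ± 0.20 (SE, edgeR unadjusted p = 0.0217, adjusted p = 0.406), and it was -0.39 without wild-type piglet 5, -0.35 without piglets 5 and 18 together, -0.35 with limma and -0.70 without wild-type piglet 23.

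Per exon length, as TPM (length-scaled counts that sum to the same total in each library), the members' wild-type means ran from 25.8 to 96.6. IDI1 was highest at 96.6 ± 22.0 TPM, followed by HMGCS1 at 68.2 ± 24.2, SQLE at 64.5 ± 4.67, LSS at 52.6 ± 9.22, FDFT1 at 34.7 ± 9.31, DHCR7 at 29.8 ± 3.43 and INSIG1 at 25.8 ± 7.57 TPM (SD, n = 4). The wild-type ranges of every pair of neighbours in this order overlapped, so only distant members were separated beyond their spread. The wild-type mean of IDI1 was above that of 89.8% of the genes tested, and that of INSIG1 above 60.0%.

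Correlations between members across the animals differed from pair to pair, from -0.63 to 0.89. Over the 8 libraries, 16 of the 21 pairs of members had a positive Pearson correlation of log2 CPM, with a median of 0.34. IDI1 and LSS were the 1 pair that passed adjustment over the 21 pairs, with r = 0.89 (exact permutation p = 0.00122, Benjamini-Hochberg adjusted p = 0.0255) and Spearman rho = 0.93 (exact permutation p = 0.00223, adjusted p = 0.0469). The r of this pair was 0.81 without the 2 libraries farthest from the median of IDI1, and 0.77 when each library was taken as its deviation from its genotype mean. HMGCS1 and IDI1 had r = 0.83 (exact permutation p = 0.00856, adjusted p = 0.0898) and rho = 0.62 (exact permutation p = 0.115, adjusted p = 0.463), with r = 0.68 without the 2 farthest libraries. SQLE had correlations of -0.63 to 0.24 with the other 6 members, none of which passed adjustment. For deviations from the genotype means, SQLE had r = 0.81 with HMGCS1, 0.63 with IDI1, 0.43 with DHCR7 and 0.12 with LSS. It had -0.02 with FDFT1 and -0.41 with INSIG1. Because several members differed in mean between the genotypes, pooled correlations also carry that difference, and the median over the 21 pairs was 0.10 for deviations from the genotype means.

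Levels relative to SQLE were also taken within each library, a quantity that depends little on library scaling. The log2 ratio of IDI1 to SQLE was -0.80 ± 0.32 in the wild type and -1.58 ± 0.13 in the knock-out, that of LSS was -0.01 ± 0.26 and -0.55 ± 0.24, and that of DHCR7 was -0.95 ± 0.17 and -1.38 ± 0.23 (SD, n = 4 each). For these 3 ratios the groups did not overlap, while they overlapped for HMGCS1, FDFT1 and INSIG1. In CPM the groups overlapped for LSS and DHCR7 as well. The share of all genes whose ratio to SQLE separates the groups was not computed. SQLE was taken as the reference after it was seen to be the 1 member whose mean was not lower, so these ratios are a description and no test is given.

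The rest of the sterol pathway showed where the members sit. Of 22 genes written down for the pathway from acetoacetyl-CoA to cholesterol, 21 were in the table and tested, 6 of them members. Of these 21, 19 had a negative log2 fold change, against 48.4% of all genes tested, and the median was -0.24. At an unadjusted edgeR p under 0.05, 10 of 21 were lower and none was higher, against 5.84% of all genes on the lower side. Without the members, 6 of 15 were lower. These genes too were listed with earlier results of these data known, so the counts are a description. No pathway gene passed the edgeR adjusted p, and limma with sample quality weights called none. DESeq2 called 2 lower, NSDHL and IDI1, against 0.786% of all genes. The count of 10 was 6 without wild-type piglet 23 and 6 without knock-out piglet 6, and 7 without piglets 5 and 18 together, while 18 or 19 of the 21 were negative in every alternative.

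**Figure D2:**
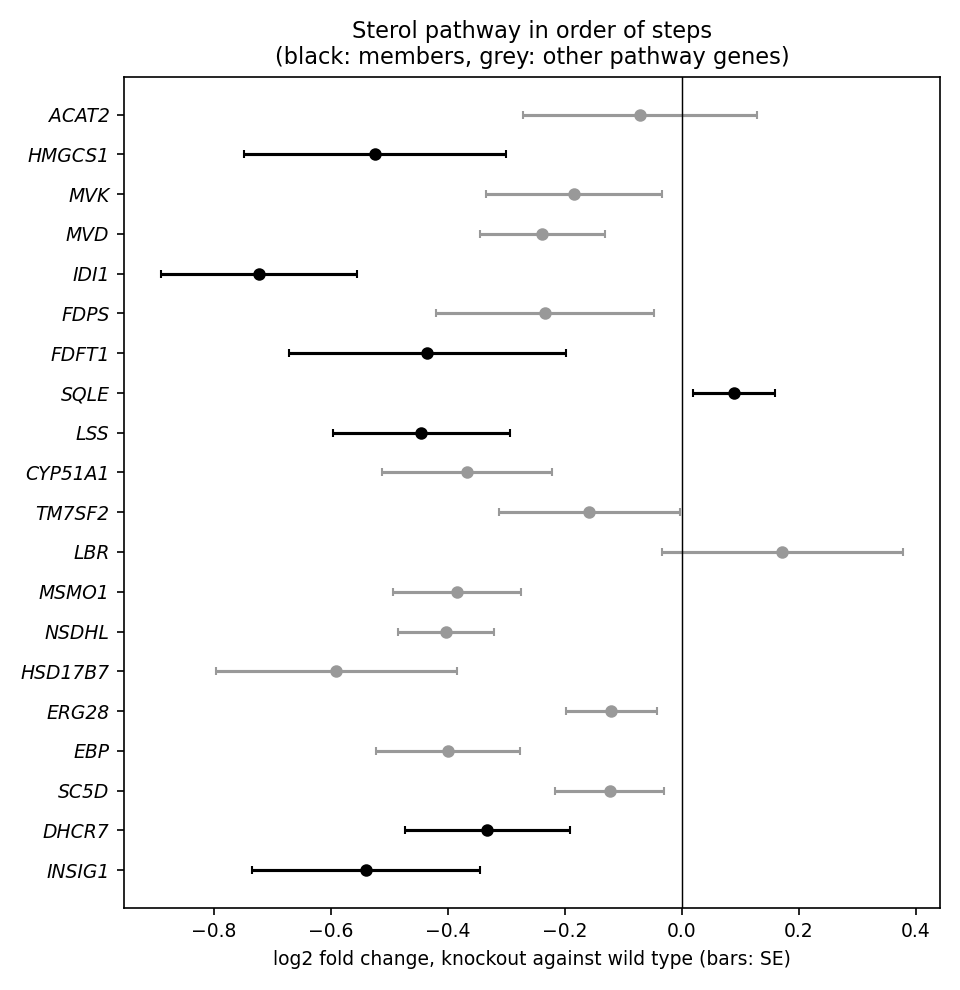
Log2 fold change of knock-out against wild type with SE (horizontal axis) for 19 of the 21 sterol pathway genes tested, in order of their steps from top to bottom, with INSIG1 last. Members are black and other genes grey, and all lie below 0 except SQLE at 0.09 and LBR at 0.17.

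Among mevalonate and isoprenoid enzymes, 7 of 7 tested were negative (median -0.23). At an unadjusted p under 0.05, 3 were lower, against 5.84% of all genes. The members HMGCS1 and IDI1 were among these 3. FDPS, which makes farnesyl diphosphate, was counted at 3.55 to 5.76 CPM, but 83.9% of its exon bases overlapped RUSC1 on the same strand, so its level is uncertain. MVK, MVD and ACAT2 had log2 fold changes of -0.18 ± 0.15, -0.24 ± 0.11 and -0.07 ± 0.20 (SE).

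Among squalene and sterol enzymes, 12 of 14 tested were negative (median -0.35). At an unadjusted p under 0.05, 7 were lower, against 5.84% of all genes. The smallest p belonged to NSDHL, the dehydrogenase that takes part in removing the methyl groups of lanosterol. NSDHL and EBP, given below, lie on the X chromosome. NSDHL was 34.4, 37.2, 31.2 and 35.0 CPM in wild-type piglets 5, 9, 12 and 23, and 24.9, 26.7, 25.5 and 27.1 CPM in knock-out piglets 6, 18, 20 and 21. The groups were apart, at -0.40 ± 0.08 in log2 (SE, edgeR unadjusted p = 0.000772, adjusted p = 0.327, DESeq2 adjusted p = 0.00307). The unadjusted p was under 0.05 in all 15 alternatives, whose adjusted p ranged from 0.00307 to 0.763.

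MSMO1, the methylsterol oxidase of the same demethylation, was 86.9, 77.0, 66.6 and 93.7 CPM in the wild type and 57.4, 66.2, 61.6 and 63.4 CPM in the knock-out, in the same order of piglets. EBP, the isomerase that moves the ring double bond, was 30.5, 36.7, 28.7 and 39.2 CPM in the wild type and 25.8, 27.4, 22.1 and 27.2 CPM in the knock-out. In both genes, of which MSMO1 shares 49 exon bases with KLHL2 on the same strand, the groups did not overlap, wild-type piglet 12 was the lowest of its group, and the log2 fold changes were -0.38 ± 0.11 and -0.40 ± 0.12 (SE, edgeR adjusted p = 0.357 and 0.374). HSD17B7 and CYP51A1, named after their values were seen, had -0.59 ± 0.21 and -0.37 ± 0.15 (SE). LBR, a nuclear envelope protein with sterol reductase activity, had 0.17 ± 0.21.

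**Figure D3:**
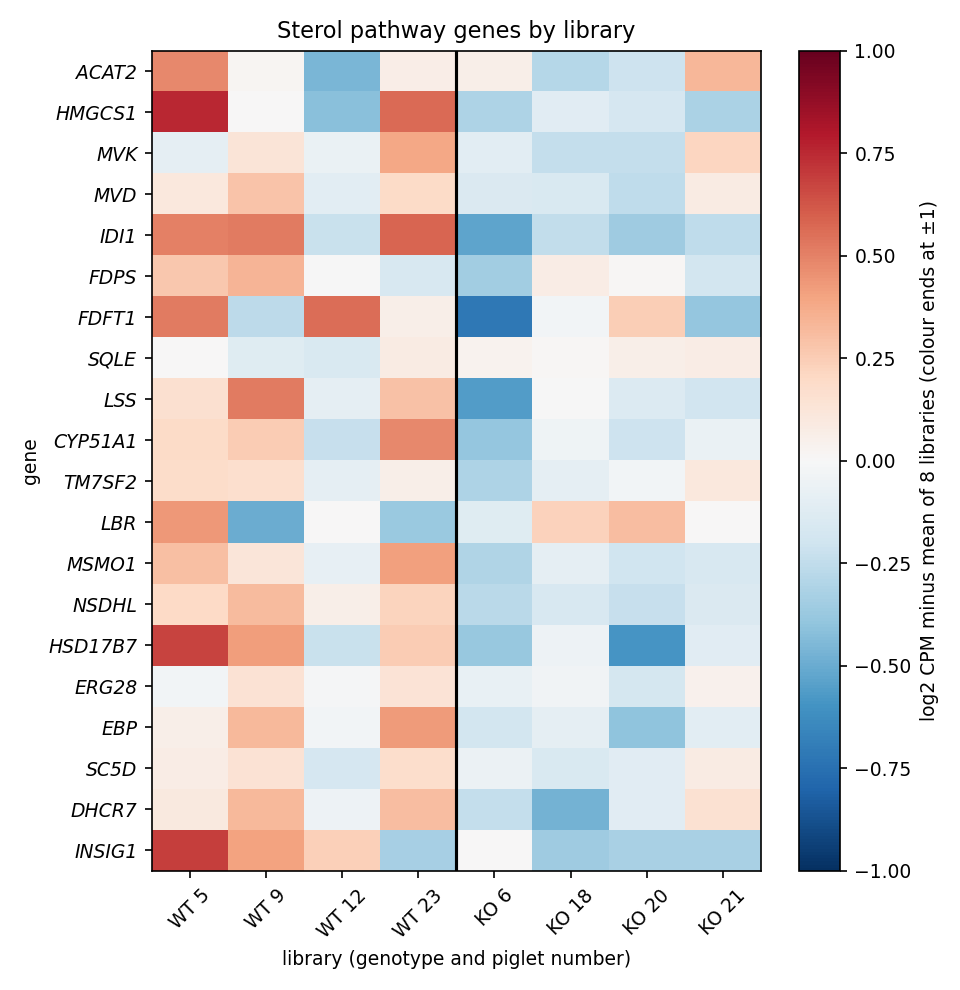
Log2 CPM of 19 of the 21 sterol pathway genes and INSIG1 (rows, in order of steps) in the 8 libraries (columns), shown as the difference from each gene's mean over the libraries, with colour ending at a difference of 1 in either direction. Wild-type piglets 5, 9 and 23 are mostly red, knock-out piglets 6, 18 and 20 are mostly blue, and knock-out piglet 21 is mixed. Wild-type piglet 12 is pale blue in most rows.

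By library, the median deviation of the 21 pathway genes from their mean was 0.19, 0.15 and 0.23 in log2 for wild-type piglets 5, 9 and 23, and -0.09 for wild-type piglet 12. It was -0.24, -0.09, -0.17 and -0.07 for knock-out piglets 6, 18, 20 and 21. Wild-type piglet 12 was therefore as low as knock-out piglet 18 and lower than knock-out piglet 21, and it was the lowest wild-type library in 16 of the 21 genes. Knock-out piglet 6 was the lowest knock-out library in 10 of 21. Without piglet 12, 13 of the 21 genes were lower at an unadjusted p under 0.05 and the median was -0.32. With Y-linked reads as a covariate, where the fold change compares the knock-out with wild-type piglets 5 and 23 only, 9 were lower and the median was -0.36.

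The genes whose pattern over the 8 libraries was most like that of the members were sought among 12213 others with a symbol and at least 1 CPM. The measure was the Pearson correlation with the mean standardised log2 CPM of the 7 members, given as a description since the highest of many values was taken. FADS2, a fatty acid desaturase, was highest (r = 0.96, rho = 0.93), followed by the transcription factor NFIB (0.96, 0.93), the oxidoreductase TP53I3 (0.96, 0.81), the ligase subunit LRR1 (0.96, 0.95) and SYNPO2L (0.95, 0.95). Without the 2 libraries farthest from the median of the members' mean, r was 0.85 to 0.93 for these 5. Of the pathway genes outside the members, MSMO1 ranked 16 of 12213 with r = 0.94, NSDHL 114 with 0.87 and CYP51A1 119 with 0.87. Others ranked much lower, such as EBP at 892 with 0.70, FDPS at 1622 with 0.59 and ACAT2 at 2400 with 0.49. MVK ranked 2632 with r = 0.46, and LBR had r = -0.09. Because several members differed in mean between the genotypes, these correlations also carry that difference.

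The regulators of the pathway had differences in both directions. Of 15 genes of sterol sensing and SREBP processing tested, 5 were negative and 10 positive (median 0.04), with 2 lower and 2 higher at an unadjusted p under 0.05 and none called by edgeR's adjusted p, DESeq2 or limma. On the higher side the background was 5.36% of all genes. SREBF2, the SREBP of cholesterol genes, was 209 to 245 CPM in the wild type and 196 to 217 CPM in the knock-out, a log2 difference of -0.12 ± 0.08 (SE, edgeR adjusted p = 0.526). SREBF1 and SCAP had log2 fold changes of 0.06 ± 0.19 and 0.04 ± 0.09 (edgeR adjusted p = 0.903 and 0.880). INSIG2, the relative of INSIG1, had 0.02 ± 0.14 and was named after its value was seen.

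RNF145, a sterol-responsive ubiquitin ligase of the endoplasmic reticulum, was 120, 91.6, 106 and 87.5 CPM in wild-type piglets 5, 9, 12 and 23, and 142, 128, 125 and 119 CPM in knock-out piglets 6, 18, 20 and 21. The knock-out values were above the wild-type values except that piglet 21 lay just under wild-type piglet 5. RNF145 differed by 0.34 ± 0.11 in log2 (SE, edgeR adjusted p = 0.385). NFYA, a subunit of the CCAAT-binding factor that acts beside SREBP at many sterol promoters, had -0.28 ± 0.09 (SE, edgeR adjusted p = 0.392) with no overlap between the groups.

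In uptake, MYLIP, which sends lipoprotein receptors to degradation, was 83.6, 63.7, 90.1 and 72.1 CPM in wild-type piglets 5, 9, 12 and 23, and 107, 108, 106 and 101 CPM in knock-out piglets 6, 18, 20 and 21. Every knock-out value was above every wild-type value, a pattern seen on that side in 2.45% of all genes tested, with means of 77.4 ± 11.8 and 106 ± 3.03 CPM (SD, n = 4 each). MYLIP differed by 0.45 ± 0.11 in log2 (SE, edgeR unadjusted p = 0.00215, adjusted p = 0.332). DESeq2 called it (adjusted p = 0.0239, with 0.0239 to 0.763 over the 15 alternatives). LRP8, a reelin and lipoprotein receptor of neurons, had 0.43 ± 0.15 (SE, edgeR adjusted p = 0.405). Of 10 uptake and lysosomal genes tested, 3 were negative and 7 positive (median 0.03), with none lower and 2 higher at an unadjusted p under 0.05, and none was called by edgeR's adjusted p or limma.

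In efflux and storage, ABCG1, the transporter that moves cholesterol to lipoprotein particles, was 318, 163, 246 and 238 CPM in wild-type piglets 5, 9, 12 and 23. It was 455, 322, 410 and 398 CPM in knock-out piglets 6, 18, 20 and 21, all above the highest wild-type value, although piglet 18 exceeded wild-type piglet 5 by little. The means were 241 ± 63.4 and 396 ± 55.4 CPM (SD, n = 4 each), 1.64-fold higher in the knock-out. The difference was 0.72 ± 0.19 in log2 (SE, edgeR unadjusted p = 0.00440, adjusted p = 0.347). DESeq2 called ABCG1 (adjusted p = 0.0313, with 0.0313 to 0.763 over the 15 alternatives), against 0.489% of all genes called higher.

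CYP27A1, which makes an oxysterol from cholesterol, was 61.6, 63.4, 70.2 and 88.8 CPM in the wild type and 119, 91.5, 93.5 and 99.4 CPM in the knock-out, in the same order. The groups were apart, and the log2 fold change was 0.51 ± 0.13 (SE, edgeR adjusted p = 0.339). SOAT1, which esterifies cholesterol for storage, had -0.57 ± 0.22, and LPCAT3, a phospholipid acyltransferase, had -0.24 ± 0.10 (SE, edgeR adjusted p = 0.413 and 0.422). ABCA1, named after its values were seen, was 4.02 to 20.2 CPM in the wild type and 13.0 to 25.8 CPM in the knock-out. Its log2 fold change was 0.94 ± 0.48 (SE, edgeR adjusted p = 0.475), and the groups overlapped through wild-type piglet 5, the other 3 wild-type values lying below every knock-out value. Of 15 genes of efflux, esterification and liver X receptor targets tested, 7 were negative and 8 positive (median 0.10, which was 0.02 without knock-out piglet 18). At an unadjusted p under 0.05, 2 were lower and 3 higher, edgeR's adjusted p and limma called none, and DESeq2 called ABCG1. Of the same list, APOE, also named after its values were seen, had -0.34 ± 0.24 (SE, edgeR adjusted p = 0.570), with overlapping groups. The activity of liver X receptors was not tested.

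**Figure D4:**
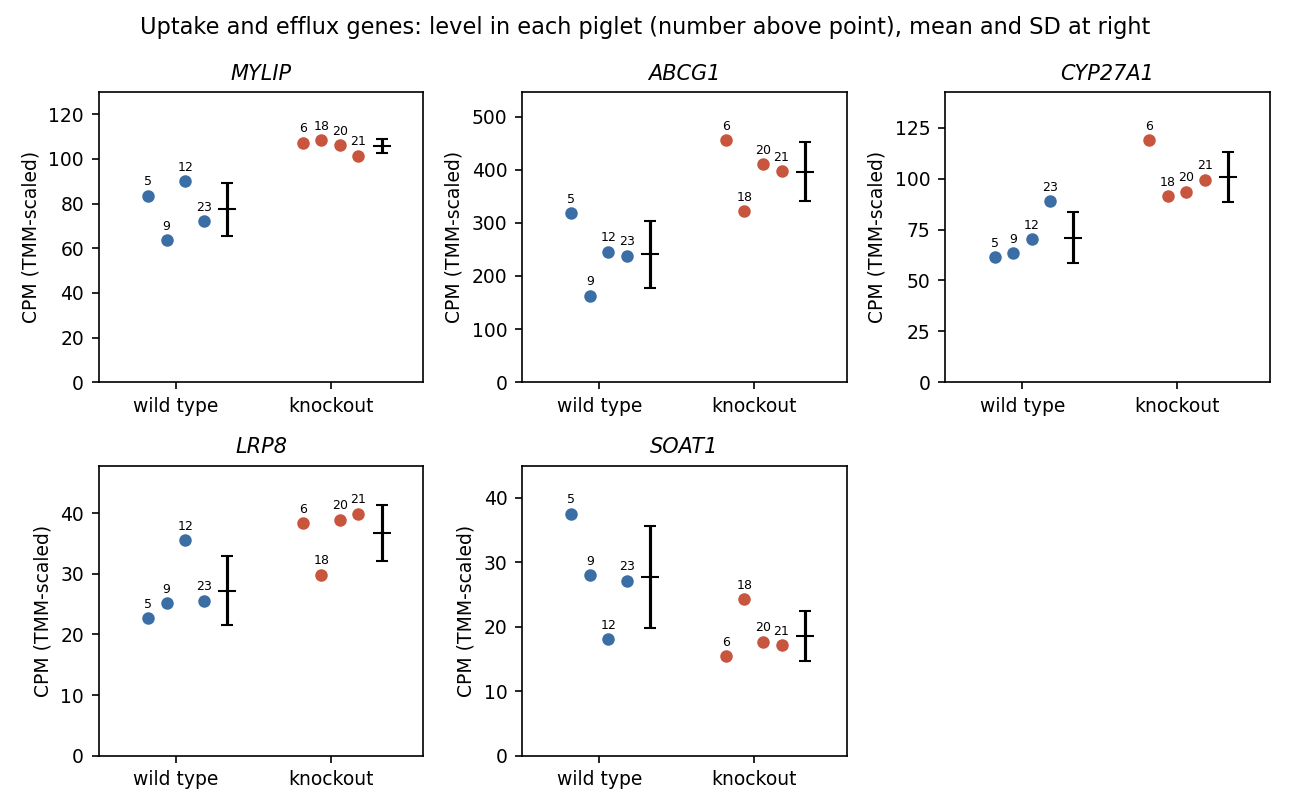
Expression of 5 uptake, efflux and storage genes in TMM-scaled CPM (vertical axis, from 0) for wild-type (blue) and CFTR knock-out (red) piglets, each point 1 library with its piglet number, and at the right of each group the mean with SD (n = 4). MYLIP, ABCG1 and CYP27A1 show knock-out values above all wild-type values, and the groups overlap in LRP8 and SOAT1.

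Transport of sterols within the cell gave values in both directions. Of 11 genes tested, 5 were negative and 6 positive (median 0.18, which was 0.03 without knock-out piglet 6), with 2 lower and 2 higher at an unadjusted p under 0.05 and none called by edgeR's adjusted p, DESeq2 or limma. STARD4, a sterol carrier that is itself an SREBP target, was 16.5, 12.4, 7.01 and 18.1 CPM in wild-type piglets 5, 9, 12 and 23, and 6.38, 8.19, 7.93 and 8.75 CPM in knock-out piglets 6, 18, 20 and 21. As in HMGCS1, wild-type piglet 12 was at the knock-out level and the other 3 wild-type piglets were above it. The log2 fold change of STARD4 was -0.79 ± 0.27, and that of its relative STARD5 was -0.49 ± 0.18 (SE, edgeR adjusted p = 0.402 and 0.406). OSBPL9, an oxysterol-binding relative, and ACBD5, a peroxisomal tether, had 0.28 ± 0.09 and 0.24 ± 0.09 (SE, edgeR adjusted p = 0.403 and 0.406).

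Fatty acid genes, many of which respond to SREBP as well, were mixed. Of 15 tested, 10 were negative and 5 positive (median -0.11, which was -0.02 without knock-out piglet 18), with 4 lower and 1 higher at an unadjusted p under 0.05 and none called by edgeR's adjusted p, DESeq2 or limma. SCD, the stearoyl-CoA desaturase, was 126, 102, 66.5 and 89.8 CPM in wild-type piglets 5, 9, 12 and 23, and 69.9, 60.3, 68.5 and 72.8 CPM in knock-out piglets 6, 18, 20 and 21, so that wild-type piglet 12 again lay among the knock-out values. SCD and the desaturases FADS1 and FADS2 had log2 fold changes of -0.50 ± 0.17, -0.50 ± 0.19 and -0.32 ± 0.11 (SE, edgeR adjusted p of 0.402 to 0.406). LPIN1, a phosphatidate phosphatase, had 0.45 ± 0.13 (SE, edgeR adjusted p = 0.357), with all knock-out values above the wild-type values. The branches of the mevalonate pathway that do not make sterols, such as prenylation, dolichol and ubiquinone synthesis, had 7 of 9 tested genes negative (median -0.12), with none at an unadjusted p under 0.05. Among these, TRIT1, a tRNA isopentenyltransferase, had the smallest p (log2 fold change -0.25 ± 0.11, edgeR adjusted p = 0.445).

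**Figure D5:**
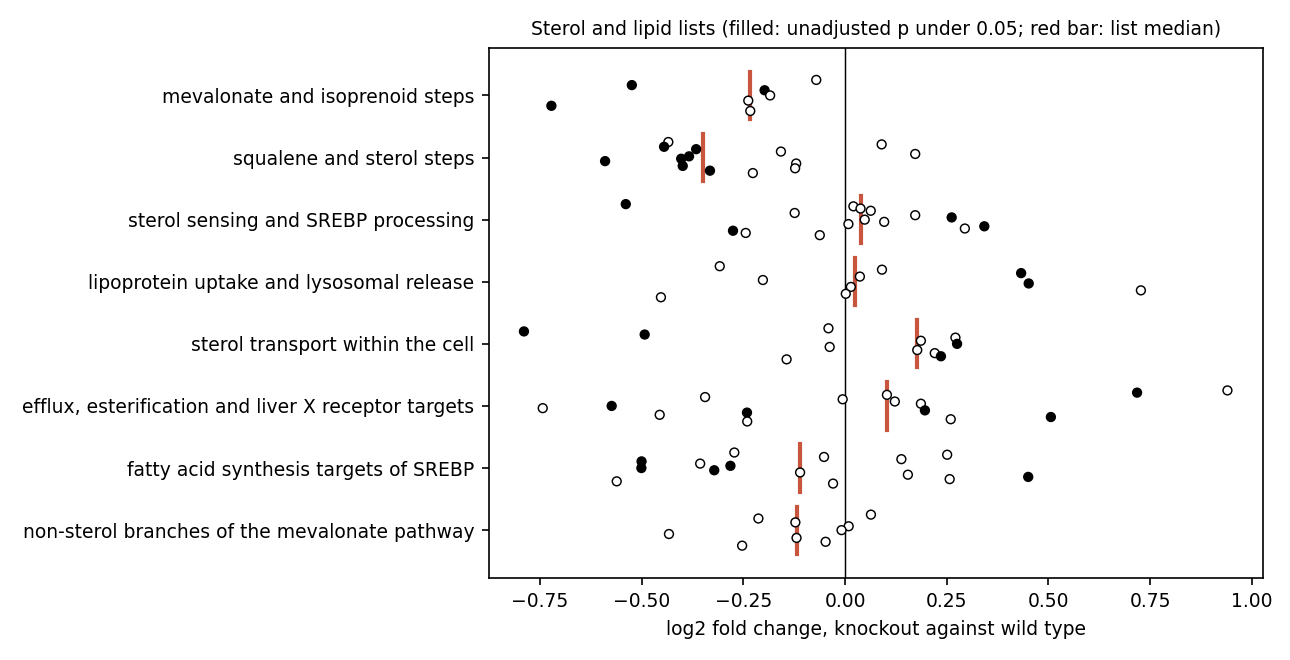
Log2 fold change of knock-out against wild type (horizontal axis) for each tested gene of 8 sterol and lipid lists (rows), filled where the unadjusted edgeR p was under 0.05, with the list median as a red bar. The medians of the first 2 lists, which make cholesterol, are -0.23 and -0.35, and those of the other 6 lie between -0.12 and 0.18.

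Markers of cells and states that moved beside these genes are given as measured, and their part in the sterol values was not tested. Endoplasmic reticulum chaperones, which share the organelle of sterol synthesis, were negative in 12 of 12 (median -0.58), 10 at an unadjusted edgeR p under 0.05, and DESeq2 called 8 and limma 1 of them. Of all genes tested, 5.84% were lower at that unadjusted p, DESeq2 called 0.786% lower and limma called 0.064% in either direction. The summed level of the chaperones was 2964 to 4408 CPM in the wild type and 2439 to 2937 CPM in the knock-out, with wild-type piglet 12 the lowest wild-type library there too. HYOU1, a chaperone, had -0.49 ± 0.08 (SE, edgeR adjusted p = 0.260). Dividing cell markers were negative in 9 of 10 (median -0.40), 4 of them at an unadjusted p under 0.05, and DESeq2 called 2 and limma none. They summed to 292 to 436 and 265 to 310 CPM, with MCM3, a replication helicase subunit, at -0.86 ± 0.18. Mature sensory neuron markers were negative in 1 of 12 (median 0.21, which was 0.09 without wild-type piglet 5 and 0.40 with Y-linked reads as a covariate). None was lower and 4 were higher at an unadjusted edgeR p under 0.05 (RIC8B, CNGA2, GNAL and ADCY3, log2 fold changes of 0.39 to 0.48), against 5.36% of all genes. The count of 4 was 1 without wild-type piglet 9, and 2 without wild-type piglet 5 or knock-out piglet 6, 20 or 21. The 12 neuron markers summed to 3357 to 5666 and 4467 to 5665 CPM, with piglet 12 the highest wild-type library. Immature neuron markers were negative in 5 of 12 and summed to 3728 to 4684 and 4124 to 4721 CPM.

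Glia and myelin markers were negative in 9 of 12 (median -0.29), with medians of -0.12 without wild-type piglet 5, -0.47 without knock-out piglet 18 and -0.59 with Y-linked reads as a covariate. They summed to 1725 to 2174 CPM in the wild type and 2078 to 2128 CPM in the knock-out, a sum carried mostly by NCAM1, which neurons also express. MBP, a myelin protein, had 0.29 ± 0.13 (SE, edgeR adjusted p = 0.433). NGFR, a receptor of olfactory glia and progenitors, had -1.20 ± 0.13 (SE, edgeR adjusted p = 0.0696), and limma and DESeq2 called it. Supporting cell markers were negative in 5 of 8 (3138 to 3895 and 2844 to 4188 CPM), with a median of -0.16 that was -0.07 without wild-type piglet 12 and 0.04 with Y-linked reads as a covariate. The keratins KRT8 and KRT18 had -0.43 ± 0.16 and -0.52 ± 0.21, whereas ERMN, named after its value was seen, had 0.54 ± 0.30 (SE). Secretory and gland markers were negative in 5 of 9 (497 to 1581 and 584 to 729 CPM), with piglet 12 lowest and piglet 5 highest, and their median of -0.05 ranged from -0.52 to 0.19 over the 15 alternatives. LTF, the iron-binding lactoferrin, had 1.27 ± 0.39, and AGR2, an isomerase of secretory cells, had -0.85 ± 0.30 (SE, edgeR adjusted p = 0.373 and 0.405). Ciliated cell markers were negative in 3 of 8 (median 0.08, which was -0.01 without wild-type piglet 12, 385 to 468 and 339 to 479 CPM).

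Bone and connective tissue markers were positive in 10 of 10 (median 1.37), and negative in 10 of 10 without piglet 18. Macrophage markers were positive in 9 of 10, and negative in 10 of 10 without piglet 18 (53.1 to 125 CPM in the wild type and 61.7 to 322 CPM in the knock-out, highest in piglet 18). Blood cell markers were positive in 5 of 5 (38.2 to 126 and 82.0 to 313 CPM, highest in piglet 18). Of the fat cell markers in the table, LEP had 0 reads, and ADIPOQ and CIDEC had 7 and 5 reads over all 8 libraries. The remaining 6 fat cell markers were negative in 3 (50.5 to 77.9 and 48.8 to 77.8 CPM).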

How the data were processed

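The deposited values are unnormalized read counts by gene for 8 libraries of olfactory epithelium, in a table laid out as featureCounts output, per the file headers, with 1 column per piglet and the exon length of each gene. Per the submitters' processing notes, the tools were STAR 2.4.0, Subread 1.5.0-p3 with featureCounts, DESeq2, HTSeq and FastQC, whose roles the notes used here do not state. The genome build, the annotation and the use of strand in counting are not given in the sources used here. Rows without an Ensembl pig identifier (spike-in, control and numbered sequences) held at most 0.00182% of a library's counts and were left out. Symbols came from a table of gene names, which covered 14857 of 25880 identifiers, and list genes with no matching symbol were not analysed here.

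Counts were fitted with edgeR 4.0.16 in R 4.3.3, using TMM normalization, edgeR's default filter, robust dispersion and the quasi-likelihood test, with genotype as the only term. Adjustment followed Benjamini and Hochberg over all 17175 genes tested, with a biological coefficient of variation of 26.5%. The standard error is the log2 fold change over the root of F. CPM values were scaled by TMM, and log2 CPM used a prior count of 2. TPM was computed from the counts and the deposited lengths. The fits were tested on simulated data of the same size, where a larger share of DESeq2's calls than of edgeR's or limma's was false. Alternatives were DESeq2 size factors, no filter, a filter at a mean of 1 CPM, DESeq2 1.42.0, limma 3.58.1 with voom and sample quality weights, leaving out each library in turn, leaving out wild-type piglet 5 with knock-out piglet 18, and a covariate for Y-linked reads. The labels number the piglets individually, and the p-values rest on the variation among these animals.

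The members, the 20 gene lists and the tests were chosen with earlier results of these data known, so the lists are described by counts and medians with no test of their own, and the ratio to SQLE was chosen after the values were seen and is given with no test. Named genes were the members, CFTR, SREBF1, SREBF2 and SCAP, in each list up to 4 genes with the smallest unadjusted p under 0.05 or else the 1 with the smallest p, and the 5 genes most like the members. Other genes (MVK, MVD, ACAT2, FDPS, LBR and those marked in the text) were named to complete the pathway, and of the marker lists only a selection of the genes the rule allows is printed. Some genes of the pathway and of the lists enter the counts and medians but are not reported here by name. Sequences were not used here.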

Additional observations from a re-analysis of the deposited data

Results flagged for a closer look

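Within the groups of 4 libraries, the CPM of the members, of CFTR and of 5 other pathway or regulator genes was examined for a sample far from the others (26 groups, of which chance marks about 1 in 20). IDI1 in wild-type piglet 12, at 42.2 CPM, lay far below the other 3 wild-type piglets (69.5 to 73.6 CPM), with a gap of 86.9% of the group's range. INSIG1 in knock-out piglet 6, at 40.8 CPM, lay above the other 3 knock-out piglets (31.7 to 32.5 CPM), although the same library was the lowest knock-out in IDI1, FDFT1 and LSS. CFTR in wild-type piglet 5, at 56.6 CPM, lay above the other 3 wild-type piglets (34.0 to 36.6 CPM).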

How the results depend on the processing

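The log2 fold change of every member kept its sign in all 15 alternatives, that of SQLE positive and the others negative. The median of the members was -0.55 to -0.34 and that of the 21 sterol pathway genes -0.36 to -0.23. The number of members called by the adjusted p was 0 in edgeR, 1 with DESeq2 and 0 to 1 when each library was left out. The number with an unadjusted p under 0.05, which was 5 of 7, was 3 to 5 when each library was left out, 2 without wild-type piglet 5 and knock-out piglet 18 together and 2 with Y-linked reads as a covariate. Over all genes, 1 was called by edgeR, 4 with no filter, 219 with DESeq2, 11 with limma, 2 without piglets 5 and 18 together, and 0 to 19 when each library was left out. The cause of these differences was not tested. The median correlation between members, 0.34, was 0.24 to 0.46 when each library was left out and 0.13 without piglets 5 and 18 together. CFTR lost its call without wild-type piglet 23 (edgeR adjusted p = 0.0541), knock-out piglet 6 (0.120) or knock-out piglet 20 (0.0510). No paired analysis was possible because the groups share no replicate number. The members had 1139 to 7846 reads per library, and the precision of their fold changes is set by 4 animals a group.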
